A study of Bos taurus with 7 samples.

Results

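miR-183 and miR-182 are microRNAs of the same gene cluster, and their short fragments were followed through 7 small RNA libraries of cow's milk (Bos taurus). The members are the listed sequences of 12 to 15 nt that match the mature 5p strand of either microRNA exactly, and they were chosen by that match and by having at least 1 read in any library. There were 24 such sequences with 4211 reads, among 229971 distinct sequences of 8 to 15 nt in all. Of the 24, 17 belonged to miR-183 with 3865 reads and 7 to miR-182 with 346 reads. Both microRNAs were put forward with their levels in these libraries already known, so their summed levels are given as a description without a test. Exact tests were run on the composition of the fragments, and calls for single fragments from a fit over all sequences are printed last, also as a description.

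The libraries were 1 each of the milk fractions titled MP - 12k, MP - 35k, MP - 70k and MP - 100k, and 3 of milk. What MP and k stand for is not stated in the labels. All 7 carry the same description of their source, Lactantia purefilter milk from Holstein cows that was bought as food, and that had been pasteurized, homogenized, skimmed and filtered. No fraction has a replicate, and the labels do not say whether the milk libraries came from separate cartons or cows, so the spread between them may be technical. Fractions had 1817538 to 2560280 reads of 8 to 15 nt and milk 1658606 to 4572650. RPM below is the usual per-library scaling of a count to the total of these reads. The 3 libraries with the smallest totals (milk 1, 70k and 100k) were also the 3 with the highest miR-183 levels, and the part of library size in those levels was not tested.

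A microRNA is a single strand of RNA that an Argonaute protein carries to messenger RNAs, and positions 2 to 8 from its 5' end, the seed, do most of the pairing with the target. miR-183, miR-96 and miR-182 form a cluster that is conserved among vertebrates, is made from 1 transcript, and is known in mouse for its role in sensory organs such as the retina and the inner ear. In the RefSeq gene table of the cow (assembly ARS-UCD2.0), MIR182, MIR96 and MIR183 follow each other on the chromosome with no listed gene between them. Milk contains microRNAs of the mammary epithelium, in vesicles and outside them. Whole microRNAs are longer than 15 nt and lie outside the window that was analysed here, so the values below are those of short fragments and not of the intact molecules.

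The strands were read from the overlapping fragments themselves, starting at the most abundant 15-nt sequence with the known seed, and the fragments reached 22 positions in both. Either strand may run further than its fragments of at most 15 nt show, so position 22 is the last one seen and not a known 3' end. They are shown because every later result is given by position in them, and capitals mark the seed.
miR-183: tATGGCACtggtagaattcact
miR-182: tTTGGCAAtggtagaactcaca
The strands were identical at 18 of 22 positions and shared no stretch of 12 nt, so every read of at least 12 nt could be given to 1 of them. With miR-183 named first and positions counted from 1 at the 5' end, the differences were A2T, C8A, T17C and T22A. The first and last base of the seed were thus among the differing positions, and miR-183 and miR-182 belong to different seed families. Read backwards or as reverse complements, the strands matched 0 sequences of 12 to 15 nt in any library. Forward matches were certain, because the strands were built from the listed sequences, so this 0 is not a check of the strands.

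Most reads belonged to 4 miR-183 fragments, named here by their first and last position, and a pair of miR-182 fragments, which are printed to show which part of the strand each holds.
miR-183 1 to 15: tATGGCACtggtaga
miR-183 2 to 16: ATGGCACtggtagaa
miR-183 2 to 15: ATGGCACtggtaga
miR-183 8 to 22: Ctggtagaattcact
miR-182 1 to 15: tTTGGCAAtggtaga
miR-182 2 to 16: TTGGCAAtggtagaa
The first 3 miR-183 fragments held the whole seed. The fragment of positions 8 to 22 held only its last base and ran to the last position seen, and it shared the 8 positions 8 to 15 with the fragment of positions 1 to 15. The 4 most abundant fragments made up 95.6% of the miR-183 reads over all libraries.

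Summed over its fragments, miR-183 was highest in the 70k fraction and lowest in milk 3. It reached 119 RPM in 12k, 123 RPM in 35k, 899.6 RPM in 70k and 338 RPM in 100k, against 260.5, 96.1 and 56.4 RPM in milk 1, 2 and 3. The 70k and 100k fractions stood above every milk library, and 12k and 35k lay between milk 1 and milk 2. The reads behind these values numbered 276, 314, 1635 and 655 in the fractions and 432, 295 and 258 in milk, and the exact 95% Poisson interval of the 70k value was 856 to 944 RPM, counting error only. Against the milk mean of 138 ± 108 RPM (SD, n = 3), the ratio was 6.54 in 70k, 2.45 in 100k, 0.868 in 12k and 0.891 in 35k.

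The order of the levels was 70k, 100k, milk 1, 35k, 12k, milk 2 and milk 3. The intervals of neighbours overlapped for 35k (109 to 137 RPM) and 12k (106 to 134 RPM) and for 12k and milk 2 (85.4 to 108 RPM), and those of the other neighbours did not. The milk libraries alone spanned 56.4 to 260.5 RPM and 70k and 100k lay outside that span while 12k and 35k lay within it. Over the 4 fractions together the mean was 369.9 ± 368 RPM (SD over 4 different fractions), a log2 ratio of 1.43 to milk. Without 70k this log2 ratio was 0.49, and without milk 1 it was 2.28.

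miR-182 was the scarcer microRNA in every library and followed a similar order. It had 1.73 RPM in 12k, 2.73 RPM in 35k, 94.1 RPM in 70k and 32.5 RPM in 100k, against 30.7, 15.0 and 0.875 RPM in milk 1, 2 and 3. The highest value, in 70k, lay above all milk libraries, whereas 100k and milk 1 were nearly level. The reads numbered 4, 7, 171 and 63 in the fractions and 51, 46 and 4 in milk. In 12k, 35k and milk 3 the 95% intervals (0.472 to 4.43, 1.10 to 5.63 and 0.238 to 2.24 RPM) overlapped, so these 3 libraries could not be ordered at this depth. The mean was 32.8 ± 43.3 RPM over the fractions and 15.5 ± 14.9 RPM in milk (SD, n = 3), a log2 ratio of 1.08 that turned to -0.33 without 70k.

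**Figure D1:**
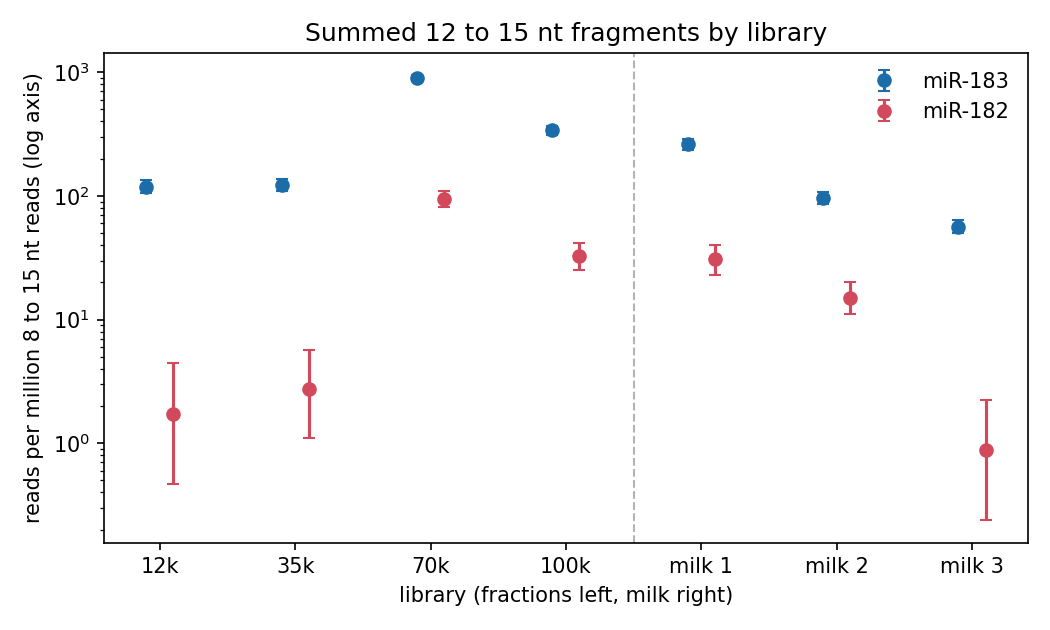
Summed 12 to 15 nt fragments of miR-183 (blue) and miR-182 (red) in each library, in RPM on a log axis, with exact 95% Poisson intervals as bars. The highest values are those of the 70k fraction, 899.6 RPM for miR-183 and 94.1 RPM for miR-182, and the lowest those of milk 3.

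miR-182 formed 1.43% of the reads of both microRNAs in 12k, 2.18% in 35k, 9.47% in 70k and 8.77% in 100k, against 10.6%, 13.5% and 1.53% in milk 1, 2 and 3. It was thus low in 12k, 35k and milk 3 and several-fold higher in the other 4 libraries. The 95% Wilson interval of the highest low share, 1.06% to 4.43% in 35k, did not reach that of the lowest high share, 6.92% to 11.1% in 100k. The share averaged 5.46% ± 4.24 (SD over 4 different fractions) and 8.53% ± 6.24 in milk (SD, n = 3). It is made from the summed levels that were already known, so nothing is read from its test (exact permutation test, two-sided, p = 0.343, adjusted over the 7 composition measures 0.343). With 4 fractions and 3 milk libraries the smallest p that this test allows is 0.0571, so no composition measure could pass 0.05.

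The miR-183 fragments began at few places. Over all libraries, 53.8% of the miR-183 reads began at position 1, 33.2% at position 2 and 11.3% at position 8, while positions 3, 4, 6 and 9 together gave the rest and no read began at 5 or 7. They ended mainly at position 15 (63.0%), position 16 (23.1%) and position 22 (10.3%). Reads of miR-182 began at positions 1 (55.5%), 2 (34.4%), 8 (5.49%) and 6 (2.02%), and ended mainly at positions 15 (54.0%), 16 (35.3%) and 22 (7.23%). The same 3 leading starts thus appeared in both microRNAs. Fragments of 15 nt, the longest in the window, held 86.0% of the miR-183 reads and 96.0% of the miR-182 reads. The shared leading ends therefore largely follow from the shared starts and are not a separate likeness. Of the 38 fragments of 12 to 15 nt that the 22 positions seen can give, fewer than the strand gives if it is longer, 17 were found for miR-183 and 7 for miR-182.

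Most reads, though not most of the distinct fragments, were at the upper edge of the window. Fragments of 15 nt held 86.0% of the miR-183 reads and 96.0% of the miR-182 reads, which were limited to 12 to 15 nt by the choice of members. Reads of 15 nt made up 4.09% to 6.35% of all reads of a library. That base also holds reads of 8 to 11 nt, so these shares are not directly comparable. Fragments of 14 nt had 511 miR-183 reads and 14 miR-182 reads, and those of 12 and 13 nt had 32 and 0. Longer pieces with the same starts would not be listed, so the end at position 15 or 16 was partly set by the window. Among all 15-nt reads, miR-183 held 0.203% in 12k, 0.166% in 35k, 1.41% in 70k and 0.561% in 100k, against 0.532%, 0.190% and 0.128% in milk 1, 2 and 3. In 70k the fragment of positions 1 to 15 was the sixth most abundant 15-nt sequence and ranked 42 of all 72194 sequences listed, whereas in milk 3 it ranked 3669 of 48966.

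The most abundant fragment of miR-183, positions 1 to 15, is the 5' end of the strand. It had 59.3 RPM in 12k, 50 RPM in 35k, 569 RPM in 70k and 184 RPM in 100k, against 169, 13.4 and 8.53 RPM in milk 1, 2 and 3. The 70k and 100k fractions were above each milk library, while 12k and 35k were above milk 2 and milk 3 and below milk 1. The fragment of positions 2 to 16 lacks the first base and held 25.1, 23.4, 185 and 72.2 RPM in 12k, 35k, 70k and 100k, against 73.0, 34.8 and 11.4 RPM in milk 1, 2 and 3. Here only 70k exceeded all milk libraries, and 12k and 35k fell between milk 2 and milk 3. The 95% intervals of 100k and milk 1 overlapped for both fragments. They were 166 to 204 and 149.6 to 189.8 RPM for positions 1 to 15. For positions 2 to 16 they were 60.7 to 85.2 and 60.5 to 87.2 RPM.

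The fragment of positions 2 to 15, a base shorter at the 3' side, differed from this order. It had 20.8 RPM in 12k, 15.2 RPM in 35k, 101 RPM in 70k and 59.3 RPM in 100k, against 0.603, 2.93 and 2.62 RPM in milk 1, 2 and 3. All 4 fractions stood above all 3 milk libraries. How many of all sequences were split in the same way was not counted, so the split is not shown to be particular to this fragment. In milk 1, where the other 5' fragments were high, it was present as 1 read. The means were 49.0 ± 39.6 RPM over the fractions and 2.05 ± 1.26 RPM in milk (SD, n = 3).

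Positions 8 to 22, the 3' side of the strand, showed another order again. This fragment had 0.433 RPM in 12k, 28.5 RPM in 35k, 6.60 RPM in 70k and 3.09 RPM in 100k, against 12.7, 43.3 and 32.6 RPM in milk 1, 2 and 3. It was highest in milk 2 and milk 3, where the 5' fragment of positions 1 to 15 was lowest, and 35k was the fraction nearest to them. The 12k value was 1 read. In place of it, 12k held 20 reads of positions 8 to 21, shorter by the last base, a fragment with 0 reads in 35k, 70k and each milk library and 1 read in 100k.

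The remaining miR-183 fragments were rare. Positions 1 to 14 had 0, 0.781, 19.8 and 7.22 RPM in 12k, 35k, 70k and 100k and 4.82, 0.326 and 0.656 RPM in milk 1, 2 and 3. The other 12 fragments, positions 8 to 21 included, had 1 to 22 reads over all libraries, 7 of them under 10 reads and 3 of them a single read. None of these 12 exceeded 8.66 RPM in any library. The 70k and 100k fractions listed the most distinct fragments, 14 each, against 8 in 12k, 9 in 35k and 6 to 8 in milk. Both also had the most miR-183 reads and the most distinct sequences of any kind, 72194 and 69432, against 44623 to 57968 in the other libraries.

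Read as shares of the miR-183 reads of a library, the balance between the ends of the strand set milk 2, milk 3 and 35k apart. Positions 8 to 22 held 0.362% of the miR-183 reads in 12k, 23.2% in 35k, 0.734% in 70k and 0.916% in 100k, against 4.86%, 45.1% and 57.8% in milk 1, 2 and 3. In milk 2 and milk 3 this 3' fragment was thus the leading one, with 3.24 and 3.82 reads for each read of positions 1 to 15, whereas that ratio was 0.570 in 35k and 0.0750 or less in the other 4 libraries. Positions 1 to 15 held 49.6%, 40.8%, 63.3% and 54.5% in 12k, 35k, 70k and 100k, against 64.8%, 13.9% and 15.1% in milk 1, 2 and 3. Milk 1 was therefore nearer to every fraction than to the other milk libraries in both shares.

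**Figure D2:**
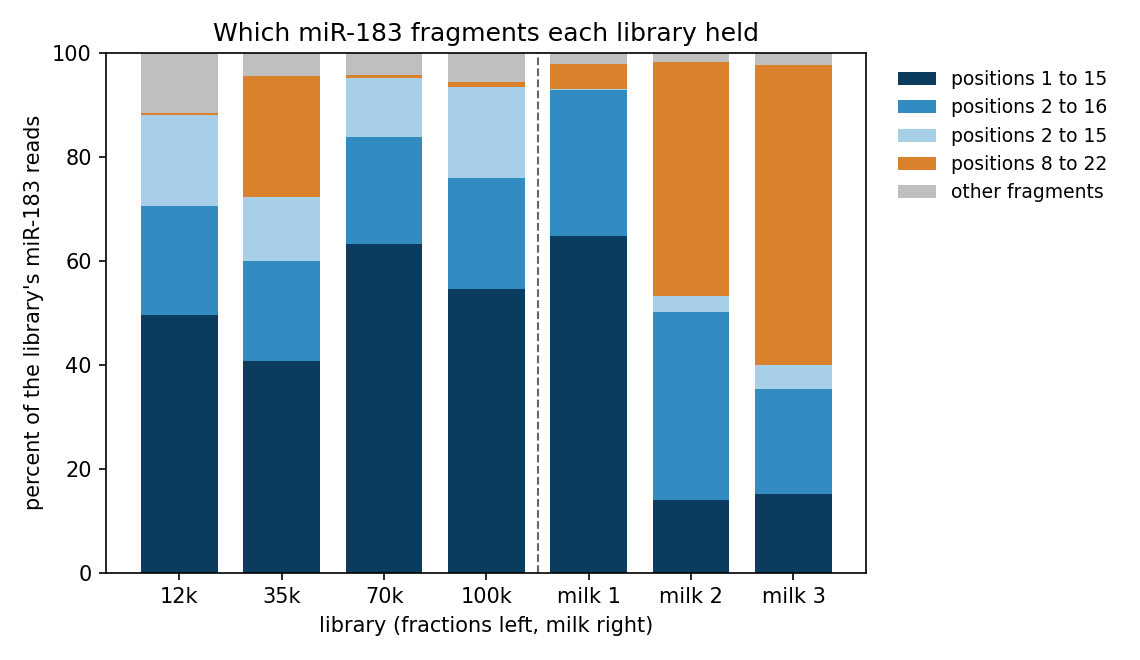
Stacked bars of the percent of each library's miR-183 reads that each fragment held, fractions left and milk right. Positions 8 to 22 (orange) fill 45.1% of milk 2, 57.8% of milk 3 and 23.2% of 35k, and under 5% of the other libraries.

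The share of miR-183 reads that held the whole seed was 88.0% in 12k, 72.9% in 35k, 97.3% in 70k and 95.7% in 100k, against 94.9%, 53.6% and 41.1% in milk 1, 2 and 3. It averaged 88.5% ± 11.1 (SD over 4 different fractions) and 63.2% ± 28.2 in milk (SD, n = 3). The two-sided exact permutation test, which took the 4 fractions as libraries of 1 kind, gave p = 0.171 and 0.300 after adjustment. The 70k and 100k fractions lay above every milk library, while 12k and 35k lay within the range of milk. The 95% Wilson intervals of 70k (96.4% to 98.0%) and 100k (93.9% to 97.0%) overlapped that of milk 1 (92.4% to 96.6%). Reads starting at position 1 averaged 53.3% ± 10.2 in the fractions and 32.4% ± 29.7 in milk (exact p = 0.286, adjusted 0.343), and no fraction lay outside the range of milk. The mean start lay at position 2.03 ± 0.731 in the fractions and 3.87 ± 1.98 in milk, and the mean end at 15.8 ± 0.759 and 17.8 ± 1.95 (exact p = 0.171 for each, adjusted 0.300). Among these measures milk varied more than the fractions, since milk 1 lay on 1 side and milk 2 and milk 3 on the other. Counted over distinct fragments in place of reads, the shares starting at position 1 and holding the seed turned to -12.0 and -19.0 percentage points, fractions minus milk.

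**Figure D3:**
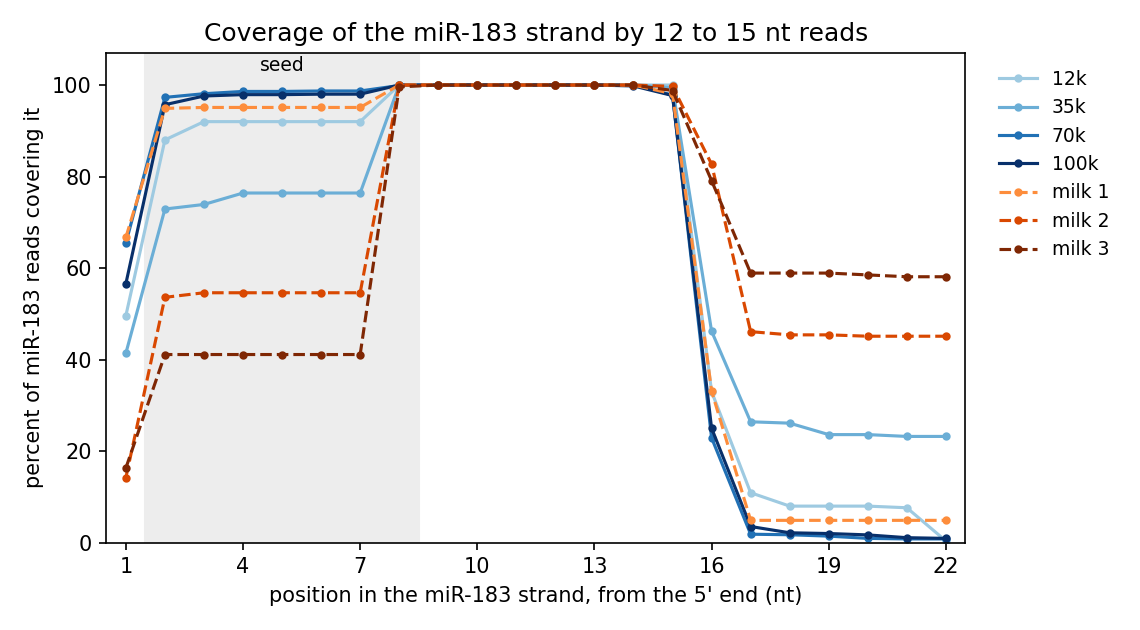
Percent of the miR-183 reads of each library that cover each position of the strand, with fractions as solid lines, milk as dashed lines and the seed shaded. In 70k 97.3% of reads cover position 2 and 0.795% position 22, while in milk 3 these are 41.1% and 58.1%.

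The plateau in the middle of the plot of coverage follows from the window, since any 15-nt piece of a strand of 22 covers positions 8 to 15.

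Of the 7 composition measures, fragment length was the 1 in which all 4 fractions lay on the same side of all milk libraries. The mean length of the miR-183 fragments was 14.74 nt in 12k, 14.86 nt in 35k, 14.84 nt in 70k and 14.76 nt in 100k, against 14.98, 14.95 and 14.92 nt in milk 1, 2 and 3. The means differed by -0.153 nt, 14.80 ± 0.0592 nt (SD over 4 different fractions) and 14.95 ± 0.0293 nt in milk (SD, n = 3). The exact permutation test, two-sided, took the fractions as libraries of 1 kind and gave p = 0.0571, the smallest possible, adjusted 0.300. The largest 14-nt fragment behind this difference was that of positions 2 to 15. Among the fragments that start at position 2, it formed 45.3% in 12k, 39.4% in 35k, 35.2% in 70k and 45.1% in 100k, against 0.820%, 7.76% and 18.8% in milk 1, 2 and 3, where the partner was positions 2 to 16. The lowest Wilson bound of a fraction, 30.3% in 35k, lay just above the highest of milk, 30.0% in milk 3. This ratio was picked after its values were seen and carries no test. Among fragments that start at position 1, the 14-nt form was a minor one, since positions 1 to 14 reached at most 36 reads beside 1035 of positions 1 to 15, in 70k.

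miR-182 had the same leading pair of fragments. Positions 1 to 15 had 0.866 RPM in 12k, 1.17 RPM in 35k, 55.6 RPM in 70k and 20.6 RPM in 100k, against 24.1, 0.326 and 0 RPM in milk 1, 2 and 3, where the 0 allows up to 0.656 RPM. Positions 2 to 16 had 0.866, 0.781, 23.7 and 7.74 RPM in 12k, 35k, 70k and 100k, against 6.03, 14.3 and 0.656 RPM in milk 1, 2 and 3. Only 70k exceeded all milk libraries in both. Milk 1 was high in the first fragment and milk 2 in the second.

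The balance of this pair was lowest in milk 2 among the libraries with at least 10 reads of it, in both microRNAs. Of the reads of positions 1 to 15 and 2 to 16 of miR-182, the first formed 70.1% in 70k and 72.7% in 100k, against 80.0% in milk 1 and 2.22% in milk 2 (1 of 45 reads, Wilson interval 0.393% to 11.6%). The same share for miR-183 was 75.4% in 70k and 71.8% in 100k, against 69.8% in milk 1, 27.7% in milk 2 and 42.9% in milk 3. In milk 2 the fragment without the first base was thus the more frequent of the pair for both microRNAs, and for miR-183 also in milk 3. In 12k, 35k and milk 3, miR-182 had at most 5 reads of the pair, too few to place it, while miR-183 stood at 70.3%, 68.1% and 42.9%.

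The 3' side of miR-182 was found mainly in 70k and 100k. Positions 8 to 22 had 0, 0.391, 6.60 and 2.06 RPM in 12k, 35k, 70k and 100k, against 0, 0.326 and 0.219 RPM in milk 1, 2 and 3, the last pair being 1 read each. Positions 6 to 20 had 5 reads in 70k and 2 in 100k, and positions 9 to 22 had 6 reads in 70k. Both had 0 reads in the other libraries. In milk 2 and milk 3, where miR-183 had 133 and 149 reads of positions 8 to 22, miR-182 thus had 1 and 1, of 46 and 4 miR-182 reads in all. The whole seed was held by 86.0% and 90.5% of the miR-182 reads in 70k and 100k, against 98.0% and 97.8% in milk 1 and milk 2, the libraries with at least 10 reads (exact permutation test, two-sided, n = 2 and n = 2, p = 0.333, the smallest possible, adjusted 0.343).

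**Figure D4:**
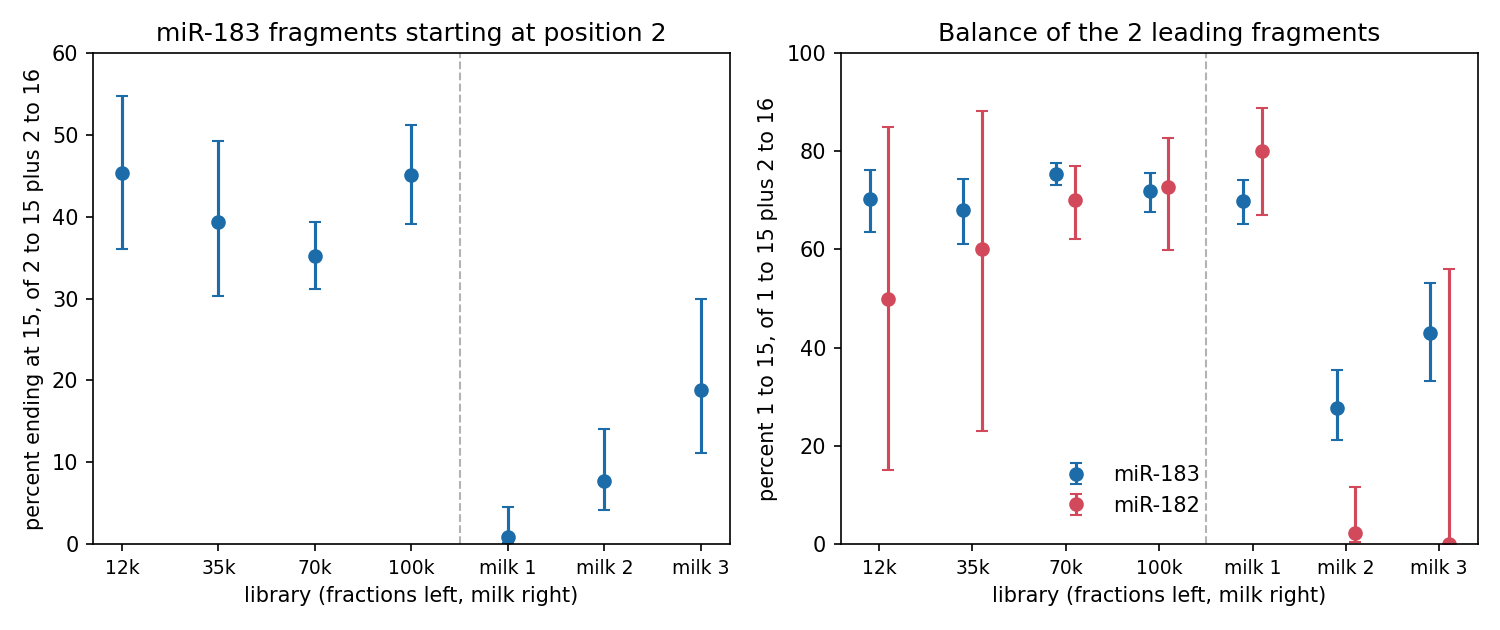
Percent of the miR-183 reads of positions 2 to 15 and 2 to 16 that end at 15 (left), and percent of the reads of positions 1 to 15 and 2 to 16 that start at 1 for miR-183 (blue) and miR-182 (red) (right), by library with 95% Wilson intervals. The fractions lie at 35.2% to 45.3% on the left, above milk at 0.820% to 18.8%, and on the right milk 2 is low for both microRNAs, at 27.7% and 2.22%.

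Sequence by sequence, the fragments were also part of a fit over the 5681 sequences that reached 10 reads in 3 or more libraries (edgeR's quasi-likelihood test with TMM scaling and Benjamini-Hochberg adjustment at 0.05). Of the 24 members, 6 were in it and 18 were too rare. The fit used the same reads per library as the choice of the microRNAs, whose levels were known, so its calls are printed as a description and nothing is read from them. For the 4 fractions against milk edgeR called 0 of the 6 members and 0.0352% of all sequences, with 1 member (positions 2 to 15 of miR-183) and 993 sequences at an unadjusted p under 0.05. DESeq2 called that 1 member and 7.5% of the sequences to which it gave an adjusted p, and limma 0 members and 0.0704% of all. The fitted log2 fold change of the fragment was 4.30, beside a median of -0.18 over all sequences. The fragment reached 10 reads in every fraction. In milk 1, 2 and 3 it had 1, 9 and 12 reads, so only milk 3 reached 10. It thus met the filter through the fractions, the group in which it was higher.

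Each fraction was also set against milk singly, with the spread taken from milk alone and the lone fraction library assumed to vary as milk did. Shares given for DESeq2 are of the sequences to which it gave an adjusted p, 3038 in 70k and 3258 in 100k. Those given for edgeR are of all 5681. edgeR called 1 of 6 members in 70k, beside 1.13% of all sequences, and 1 of 6 in 100k, beside 3.93%. Both times this was positions 2 to 15 of miR-183, with fitted log2 fold changes of 5.08 in 70k and 4.93 in 100k. The call was lost in both fractions without TMM, with limma, after thinning to the smallest total, and without 12k, 35k or milk 2, in 70k also without 100k or milk 3, and in 100k also without 70k. DESeq2 called 2 members in 70k (positions 1 to 15 and 2 to 15 of miR-183) beside 27.6% of sequences, and 1 in 100k (positions 2 to 15) beside 28.1%.

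In 12k and 35k edgeR called 0 of 6, beside 1.67% and 2.36% of all sequences, with 2 members in 12k and 0 in 35k at an unadjusted p under 0.05. The 2 were positions 2 to 15 of miR-183, with a fitted log2 fold change of 3.17, and positions 8 to 22, with -6.01. DESeq2 called the fragment of positions 8 to 22 in 12k beside 7.74% of sequences, and 0 members in 35k beside 8.8%. The DESeq2 shares are again of the sequences with an adjusted p, 2377 in 12k and 2817 in 35k. DESeq2 gave no adjusted p for positions 2 to 16 of miR-182 in 12k, 35k or 70k. In each single fraction limma called 0 of the 6 members and 0 of all sequences, with 808 to 1540 sequences at an unadjusted p under 0.05. Over all sequences the median log2 fold change was -0.98 in 70k, -0.87 in 100k, -0.56 in 12k and -0.53 in 35k, and without TMM it was -0.62, -1.14, -0.62 and -0.17.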

How the data were processed

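Small RNA libraries were sequenced on an Illumina instrument, per the labels' protocols. The authors deposited, per the file headers, the read count of each distinct sequence of 8 to 15 nt and its RPM. For milk 1 the RPM column, treated as a score because its last line holds a column total, was deposited likewise. RPM differed from count over file total by at most 0.001. Closing totals were left out. For trimming, filters, aligner and genome build the entry is: not given in the sources used here. Library totals cover only reads of 8 to 15 nt and so are not the full depth.

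No table of microRNA sequences was used. Each strand was rebuilt from the deposited sequences: the most abundant 15-nt sequence with the known 7-base seed at positions 2 to 8 (2017 reads for miR-183, next candidate 412; 187 for miR-182, next 39) was extended with overlaps of at least 10 nt by the sequence with most reads, at least 2. Other microRNAs, the hairpins, the planned microRNA lists and the likeness to other families were therefore not analysed here. Members and lists were chosen with earlier results of these data known. Fragments named are the 5 most abundant of each microRNA and every called one, and others mentioned were chosen after their values were seen.

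Counts were tested with edgeR 4.0.16 (R 4.3.3), with DESeq2 1.42.0 and limma 3.58.1 on log2(RPM + 1) as alternatives. The edgeR function was tested on simulated data. Composition measures needed 10 reads in a library and used exact permutation tests (scipy 1.17.1). Intervals are 95%, exact Poisson for levels and Wilson for shares. Without molecular identifiers they cover counting error only. A count of 0 allows 3 reads, 0.656 to 1.81 RPM. Alternatives were other match lengths, 1 mismatch, other denominators, thinning, distinct sequences, other read minimums and leaving out each library.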

Additional observations from a re-analysis of the deposited data

How the results depend on the processing

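The log2 ratio of miR-183, fractions over milk, was positive under all 15 alternatives (0.49 to 2.28, both ends from leaving out 1 library, 70k and milk 1). That of miR-182 was positive under 14 of 15 and -0.33 without 70k, with 2.05 without milk 1 as the highest. Allowing 1 mismatch gave 1.51 and 1.13, and reads of 14 and 15 nt as the denominator, added after the data were seen, 1.31 and 0.98. With distinct fragments in place of reads 5 composition differences reversed: the share starting at position 1 (-12.0 points), the share with the seed (-19.0 points), the mean start (0.407), the mean end (0.255) and the miR-182 share (0.736 points). Rare fragments weigh as much as common ones there. The length difference stayed negative in all 11 alternatives (-0.366 to -0.133 nt), and the cause of the larger values was not tested. Leaving out 1 library, the share starting at position 1 differed by 11.8 to 38.0 points, the seed share by 14.3 to 41.2 points and the miR-182 share by -6.56 to -0.580 points.

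Calls of members depended on the settings. DESeq2 called 1 over the 4 fractions, 1 in 12k, 2 in 70k and 1 in 100k, beside 413, 184, 839 and 914 sequences in all. In 70k and 100k edgeR called 0 each without TMM, with at least 1 read in at least 2 libraries, with at least 50 reads in at least 3 (where positions 2 to 15 is not tested) and after thinning, and limma 0 each. Leaving out 1 library gave 0 to 2 calls in both: 2 in each without milk 1 (beside 493 and 555 of 4734 sequences, against 64 and 223 of 5681 with it), 0 in each without milk 2, 12k or 35k, 0 in 70k without 100k or milk 3, and 0 in 100k without 70k. The causes were not tested. The hairpin match and the share of all microRNA reads were not run. No paired analysis was possible because the fractions carry no replicate numbers shared with milk. Low counts limited miR-182 in 12k, 35k and milk 3, with 4 to 7 reads each. The totals of these libraries, 2309731, 2560280 and 4572650 reads, were above those of 70k, 100k and milk 1.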

Other observations

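Reads with 1 mismatch to a strand lay outside the exact match and are given as values. There were 81 distinct sequences with 356 reads 1 mismatch from miR-183 and 17 with 40 reads from miR-182, and 4 more with 8 reads were as near to both. In 12k and 35k, 70 and 114 such reads stood beside 276 and 314 exact miR-183 reads, in 70k and 100k 71 and 70 beside 1635 and 655, and in milk 1, 2 and 3 21, 8 and 2 beside 432, 295 and 258. Most of those in 12k and 35k were a single 12-nt sequence, positions 5 to 16 with G10C, with 50 and 101 reads there, 2 and 4 in 70k and 100k, and 0, 1 and 0 in milk. Whether that sequence comes from miR-183 was not tested. A form of positions 1 to 15 with T1G had 0, 4, 10 and 8 reads in 12k, 35k, 70k and 100k and 0, 0 and 1 in milk 1, 2 and 3.

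Shorter exact matches of 10 and 11 nt, which other RNAs can share, numbered 0 to 4 reads of miR-183 in each fraction, 1 in milk 2 and 0 in milk 3. Milk 1 had 16, all of 1 fragment of positions 8 to 18 that had 0 reads in every other library. miR-182 had none in any library.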
